A study of Mus musculus with 6 samples.

Results

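The cytosolic ribosomal protein genes encode the proteins of the 40S and 60S subunits, the particles that read messenger RNA and join amino acids outside mitochondria. They were chosen by gene symbol alone (Rpl or Rps with a number and at most a closing a, l or x, the stalk genes *Rplp0* to *Rplp2*, and *Rpsa*), so the rule itself used no measured values. The rule took 82 of the 24453 gene rows, 32 of them for the small subunit and 50 for the large subunit. Of these, 61 (24 small-subunit and 37 large-subunit genes) had a mean of 1 FPKM or more over the libraries and were tested, and 21 were below that level.

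The study sequenced messenger RNA of the visual cortex from male mice of strain C57BL/6J, 14 days old and perfused with paraformaldehyde, and compared 3 libraries of *Chrdl1* knockouts (KO) with 3 of wild type (WT). *Chrdl1* encodes chordin-like 1, which is secreted and antagonises bone morphogenetic proteins, and the sources used here do not say how the knockout was made. The number in a library's title joins the libraries in pairs of 1 KO and 1 WT library, called here pair A (KO1011 and WT1011), pair B (KO1012 and WT1012) and pair C (KO1013 and WT1013). The labels do not say what that number stands for or whether every library came from its own animal, so p-values measure only the spread between these libraries. Estimated depth was 22.7, 31.9 and 26.4 megareads in the KO libraries of pairs A, B and C, and 27.5, 34.03 and 38.2 megareads in the WT libraries of the same pairs. *Chrdl1* itself measured 0.161 ± 0.036 FPKM in KO and 3.44 ± 0.299 FPKM in WT (SD, n = 3 each). The 6 markers of cortical excitatory neurons were present in every library, at a summed 674 to 796 FPKM in KO and 682 to 781 FPKM in WT, and no marker of the other lists was at 0 in all libraries.

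Ribosomal proteins are needed in near-equal numbers, since each ribosome holds a single copy of almost all of them. In mammals their genes are transcribed at high rates in all cells, and most of their messages start with a run of pyrimidines, the terminal oligopyrimidine (TOP) motif, through which the kinase mTORC1 and the La-related protein Larp1 set how much of the message is translated. Their messages have also been copied back into the genome many times, and the mouse genome holds many processed pseudogenes of this family. In neurons some ribosomal protein messages are also found in axons and dendrites.

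The pyrimidine run is visible in the start regions of part of the members. Those below are RefSeq windows (GRCm38.p6, the assembly of mm10) from 40 bases before to 20 bases after an annotated start, and capitals mark the longest run of C and T that reaches within 20 bases of the start. They were chosen, after the data were seen, from members described further on: *Rps10* and *Rpl37* as those with the largest differences between pairs, *Rplp2* and *Rplp0* of the stalk, the abundant *Rpl4*, and *Rps25*, the tested member with the lowest KO level relative to WT.
Rps10 (chr17:27635225-27635284, minus strand): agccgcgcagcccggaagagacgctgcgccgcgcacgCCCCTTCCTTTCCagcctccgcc
Rpl37 (chr15:5116573-5116632, plus strand): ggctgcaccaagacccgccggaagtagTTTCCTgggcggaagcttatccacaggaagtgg
Rplp2 (chr7:141447611-141447670, plus strand): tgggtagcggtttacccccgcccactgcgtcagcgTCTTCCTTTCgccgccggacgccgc
Rplp0 (chr5:115559427-115559486, plus strand): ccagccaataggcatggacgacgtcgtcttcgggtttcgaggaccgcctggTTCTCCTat
Rpl4 (chr9:64173347-64173406, plus strand): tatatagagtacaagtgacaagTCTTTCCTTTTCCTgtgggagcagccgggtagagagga
Rps25 (chr9:44407674-44407733, plus strand): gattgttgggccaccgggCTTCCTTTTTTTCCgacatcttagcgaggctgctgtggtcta
In *Rps10* and *Rplp2* the run spans the annotated start, beginning 3 and 5 bases before it, and is 13 and 10 bases long. The runs of *Rpl4* and *Rps25* are 14 bases long each and lie before the annotated start, and those of *Rpl37* and *Rplp0* have 6 and 7 bases.

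Promoter windows were in the table for 61 of the 82 members, with 73 windows among them. A run of 8 or more C or T reaching within 20 bases of the start was in 35 of the 73 member windows (47.9%), against 21.0% of all 32851 windows in the table. Over the full window of 250 bases before to 50 after the start, on both strands, the letters CCGGAAG (a core that ETS-family factors bind) stood in 35.6% of member windows and 8.86% of all. The letters CTCTTTC stood in 27.4% of member windows and 8.16% of all, AAGATGG in 15.1% and 6.34%, and TATAAA in 9.59% and 13.6%. The letters CTCTTTC can lie inside a pyrimidine run, so those counts overlap. These are matches of letters, not measured binding sites.

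The listed levels of members ran from 0 to 266 FPKM. By mean FPKM (fragments set against exon length and library size, a level per length), 1 member was at 0 in every library, 1 was above 0 and below 0.1, 19 lay from 0.1 to 1, 21 from 1 to 10, 35 from 10 to 100, and 5 over 100. The median was 9.22 FPKM over all 82 and 21.4 FPKM over the 61 tested. The members nearest the filter were *Rpl19* at 0.817, *Rps12* at 0.915 and *Rpl12* at 0.999 FPKM below it, and *Rpl11* at 1.06, *Rpl27* at 1.07 and *Rps7* at 1.16 FPKM above it.

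*Rplp1*, a protein of the stalk that draws translation factors to the large subunit, was the member with the highest level. It had 242, 251 and 292 FPKM in KO cortex (pairs A, B and C) and 248, 274 and 290 FPKM in WT cortex, so both pair C libraries stood highest and the genotypes overlapped. *Rpl8*, a large-subunit protein near the peptidyl transferase centre, had 187, 204 and 204 FPKM in KO and 177, 210 and 205 FPKM in WT. *Rps15*, a small-subunit protein whose tail reaches the decoding site, had 189, 190 and 206 FPKM in KO and 185, 203 and 202 FPKM in WT. *Rpl4*, which lines the tunnel that the new protein leaves through, had 187, 203 and 198 FPKM in KO and 181, 201 and 198 FPKM in WT. In all 4 both pair A libraries were lowest, and none of the 4 separated KO from WT.

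The other stalk genes and *Rpsa* were far apart in level. *Rplp0*, the base of the stalk, had 61.1, 60.8 and 69.3 FPKM in KO and 57.8, 59.6 and 73.0 FPKM in WT, with both pair C libraries highest. *Rplp2*, the partner of *Rplp1*, had 37.8, 36.5 and 43.6 FPKM in KO and 35.4, 36.6 and 40.5 FPKM in WT. *Rpsa*, a small-subunit protein also known as the laminin receptor precursor, had 0.930, 1.30 and 1.596 FPKM in KO and 1.12, 1.52 and 1.58 FPKM in WT, from 39 to 112 reads a library. In each of the 3 the KO and WT libraries overlapped.

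At the low end stood *Rps23* and *Rps29*, small-subunit proteins of every cell. *Rps23* was listed at 0, 0.171 and 0.138 FPKM in KO and 0.133, 0.214 and 0.095 FPKM in WT, which is 0 to 4 reads a library. *Rps29* was listed at 0.115, 0.163 and 0.197 FPKM in KO and 0.189, 0 and 0 FPKM in WT, or 0 to 2 reads. *Rpl32l* was listed at 0, 0.053 and 0.129 FPKM in KO and 0.124, 0 and 0.178 FPKM in WT. No member below 1 FPKM had more than 30 reads in any library. For a 500-bp gene, a count of 0 is compatible with levels of up to 3 reads, which are 0.265 FPKM in the shallowest library, KO1011, and 0.157 FPKM in the deepest, WT1013, so genotype differences in *Rps23*, *Rps29* and *Rpl32l* were not detectable at this depth.

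Because most of these messages have near-identical copies elsewhere in the genome, listed levels may miss or gain reads, and the sources used here do not say how reads with several matches were counted. All 82 rows have a copy number of 1 in the authors' table, so the table itself does not mark this. For 81 members the RefSeq accession matched a GENCODE M21 transcript, and 78 of those shared at least one 50-base window with a transcript of another gene. The median member had 51.5% of its windows to itself, and *Rpl9* had the lowest share, 6.68%. These shares are of the longest matched transcript, whose length can differ from that of the measured row (in *Rps20*, 3706 bases against 496 bp). For such members the share may not describe the measured message. The 38 members with under 50% of windows of their own had a median of 4.16 FPKM, and the 43 others 19.5 FPKM. Over the 81, Spearman's rho between own share and mean FPKM was 0.28, a description across genes that share libraries and family. The relation was loose: *Rplp1*, with the highest level, had an own share of 40%, and the 20 matched members below 1 FPKM had 6.68% to 100%. Unannotated copies and the whole genome were not searched. Levels of different members are therefore not comparable as amounts of message. The tests between KO and WT set each row against itself, but reads missed or gained through copies can enter each library's value there too.

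**Figure D1:**
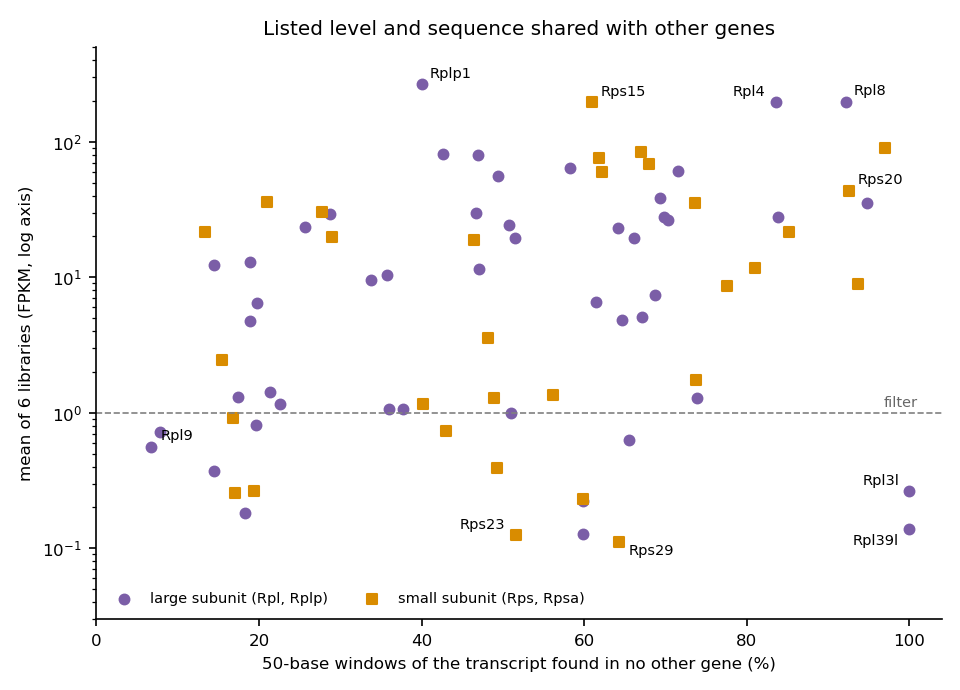
Mean level over the 6 libraries (FPKM, log axis) against the share of each transcript's 50-base windows that occur in no other gene's transcripts, for the matched members with a level above 0 but 1 that is not shown; circles are large-subunit and squares small-subunit genes. Members with few windows of their own lie lower in general, but *Rplp1*, with 40%, has the highest level, and *Rpl3l* and *Rpl39l*, with 100%, lie below the dashed line at 1 FPKM.

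Rows outside the naming rule bear on this. *Rpl14* measured 24.4 FPKM on average, while the row of its processed copy *Rpl14-ps1* stood at 75.03 FPKM. *Rplp2* measured 38.4 FPKM, and *Rplp2-ps1* 54.5 FPKM. The rows do not show which locus the reads came from. Rows of other genes, many of them small RNAs, overlapped 35 members. For *Rpl26*, *Rpl30* and *Rpl34* such a row lay on the same strand and held the same reads within 5%, so the 2 rows of each are not separate measurements. For 5 tested members (*Rpl5*, *Rpl31*, *Rpl32*, *Rps25* and *Rps4l*) the other row lay on the opposite strand, and without a known strand setting reads in the overlap cannot be told apart. Other 40S and 60S components that the symbol rule leaves out included *Gnb2l1* (an older symbol of Rack1, a scaffold on the small subunit) at 136 FPKM, *Rps3a1* at 17.8 FPKM and *Fau* (a ubiquitin-like fusion to a small-subunit protein) at 0.715 FPKM.

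For description, 5 couples of related genes were chosen. In 4 of these 5 the listed level per length was higher in the gene that most cells use, with the limit on shared sequence just given. That count depends on the choice of couples. Outside it, *Rpl32* averaged 60.3 FPKM against 0.081 FPKM for *Rpl32l*, while *Rpl36a* averaged 0.37 FPKM against 9.84 FPKM for *Rpl36al*. *Rpl3*, near the peptidyl transferase centre, averaged 12.7 ± 0.272 FPKM in KO and 11.7 ± 1.49 FPKM in WT, and its heart and skeletal muscle partner *Rpl3l* 0.250 ± 0.041 FPKM in KO and 0.276 ± 0.070 FPKM in WT (SD, n = 3 each). *Rpl39*, of the exit tunnel, averaged 27.2 ± 4.72 FPKM in KO and 28.9 ± 7.57 FPKM in WT, and its testis-enriched partner *Rpl39l* 0.121 ± 0.068 FPKM in KO and 0.159 ± 0.062 FPKM in WT (SD, n = 3 each). *Rps4x*, the X-linked small-subunit gene, averaged 29.9 ± 2.04 FPKM in KO and 31.1 ± 4.98 FPKM in WT, not far from *Rps4l* at 21.3 ± 3.35 FPKM in KO and 21.8 ± 0.568 FPKM in WT (SD, n = 3 each). *Rpl10* was below the filter at 0.737 ± 0.195 FPKM in KO and 0.705 ± 0.254 FPKM in WT (SD, n = 3 each), and 92.1% of its windows also occurred in *Rpl10-ps3*, while its testis-expressed retrocopy *Rpl10l* had no read in any library. The measured rows of *Rps4l* and *Rps27* are RefSeq entries of the non-coding class, and those of *Rps4x* and *Rps27l* of the coding class. *Rps27* and its partner ran the other way. *Rps27l* averaged 7.85 ± 0.082 FPKM in KO and 9.48 ± 0.980 FPKM in WT, against 1.39 ± 0.343 FPKM in KO and 1.16 ± 0.299 FPKM in WT for *Rps27* (SD, n = 3 each), which shares 51.1% of its windows with *Rps27rt*.

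No ribosomal protein gene passed the test between KO and WT visual cortex. By limma on log2(FPKM + 1) with Benjamini-Hochberg adjustment over 12863 genes, 0 of the 61 tested members were called, and the single gene called in the whole table (0.00777%) was *Chrdl1*. The smallest adjusted p of a member was 0.99986, and 0.99893 with the pair as a replicate block. At an unadjusted p under 0.05 there were 2 members (*Rps25* and *Rps27l*, 3.28%, against 0.63% of all tested genes), and 3 with the block (*Rps10* as well, 4.92%, against 3.91% of all). Limma with voom on whole reads recovered from the FPKM values also called 0 members, and 1 gene in the whole table. For 58 of the 61 members, and for all 61 with the block, the 95% interval of KO minus WT stayed inside a 1.5-fold change either way, on a scale that understates changes of genes near 1 FPKM.

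Summed over all 82 members, the level was 2254, 2472 and 2568 FPKM in the KO libraries of pairs A, B and C, and 2164, 2583 and 2656 FPKM in the WT libraries of the same pairs. KO was above WT in pair A and below it in the other pairs, so the sums of the genotypes overlapped. The difference of single members, KO minus WT in log2(FPKM + 1), ran from -0.28 to 0.14 with a median of -0.02, against 0.01 over all tested genes, and 37 of the 61 were lower in KO. That median had no stable sign: leaving out a single library gave from -0.11 (without WT1011) to 0.04 (without KO1011, or without WT1013), and it was also above 0 at 0.01 without WT1012. The small-subunit and large-subunit members had medians of -0.02 each.

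The largest KO deficits were in *Rps25* and *Rps27l*, the only members whose KO libraries all lay below all WT libraries. *Rps25*, a small-subunit protein needed for some forms of cap-independent initiation, had 1.57, 1.48 and 1.40 FPKM in KO and 2.04, 2.04 and 1.97 FPKM in WT. The groups were apart with little spread in either, but on only 24 to 51 reads a library. The last 243 bases of its row also lie in that of *Ccdc84* on the opposite strand, which measured 3.20, 1.72 and 2.05 FPKM in KO and 3.47, 2.36 and 2.4 FPKM in WT, lower in KO within each pair. The *Rps25* difference was -0.28 (SE 0.08) in log2(FPKM + 1), a KO level of 0.734 times WT, with an unadjusted limma p of 0.00787 and an adjusted p of 0.99986. With the block the SE was 0.07, the unadjusted limma p 0.00346 and the adjusted p 0.99893. *Rps27l*, which p53 is known to induce in human cells, had 7.92, 7.88 and 7.76 FPKM in KO and 8.38, 9.80 and 10.3 FPKM in WT. The KO libraries were nearly alike, and the spread lay in WT, where pair A was lowest. Its difference was -0.24 (SE 0.09), or 0.828 times WT, with an unadjusted limma p of 0.0258 and an adjusted p of 0.99986. With the block its SE was 0.07, the unadjusted limma p 0.00871 and the adjusted p 0.99893. By exact permutation (2-sided, without regard to pairs) both genes had p = 0.1, which is the minimum for 3 libraries against 3. Such a full separation downward occurred in 2 of 61 members (3.28%) and in 1.19% of all tested genes, and separation upward in 0 members and 1.76% of all genes. Both genes lie on the plus strand of chromosome 9 in mm10, *Rps25* from 44407714 to 44410406 and *Rps27l* from 66946076 to 66949522. The tested members *Rplp1*, *Rpl4*, *Rpl14*, *Rpl29* and *Rpsa* lie on chromosome 9 as well, and their KO and WT libraries overlapped.

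The next members lower in KO overlapped between genotypes. *Rps10*, a small-subunit protein near the path of the incoming message, had 1.79, 3.38 and 4.49 FPKM in KO and 2.32, 4.93 and 4.39 FPKM in WT. Its difference was -0.22 (SE 0.29), and with the block the SE was 0.09 and the unadjusted limma p 0.0468. *Rps26*, which sits where the message leaves the subunit, had 56.7, 55.7 and 59.1 FPKM in KO and 56.1, 59.3 and 71.5 FPKM in WT, so WT1013 was the highest library, and the difference was -0.11 (SE 0.10). *Rpl27a*, a large-subunit protein, had a difference of -0.10 (SE 0.10).

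The members with the largest KO excess were *Rps27*, *Rpl11*, *Rpl3*, *Rpl23a* and *Rpl27*, with differences of 0.14, 0.14, 0.12, 0.11 and 0.10 in log2(FPKM + 1). All but *Rpl3* had means between 1 and 1.4 FPKM and at most 34 reads in a library. *Rpl11*, which with *Rpl5* and 5S RNA can bind and inhibit Mdm2, had 1.21, 1.23 and 1.04 FPKM in KO and 0.932, 1.30 and 0.670 FPKM in WT, with WT1012 the highest of all. *Rpl3* had 12.4, 13.0 and 12.8 FPKM in KO and 10.7, 13.4 and 11.0 FPKM in WT, again with WT1012 above every KO library. None of the 5 had an unadjusted limma p under 0.05.

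**Figure D2:**
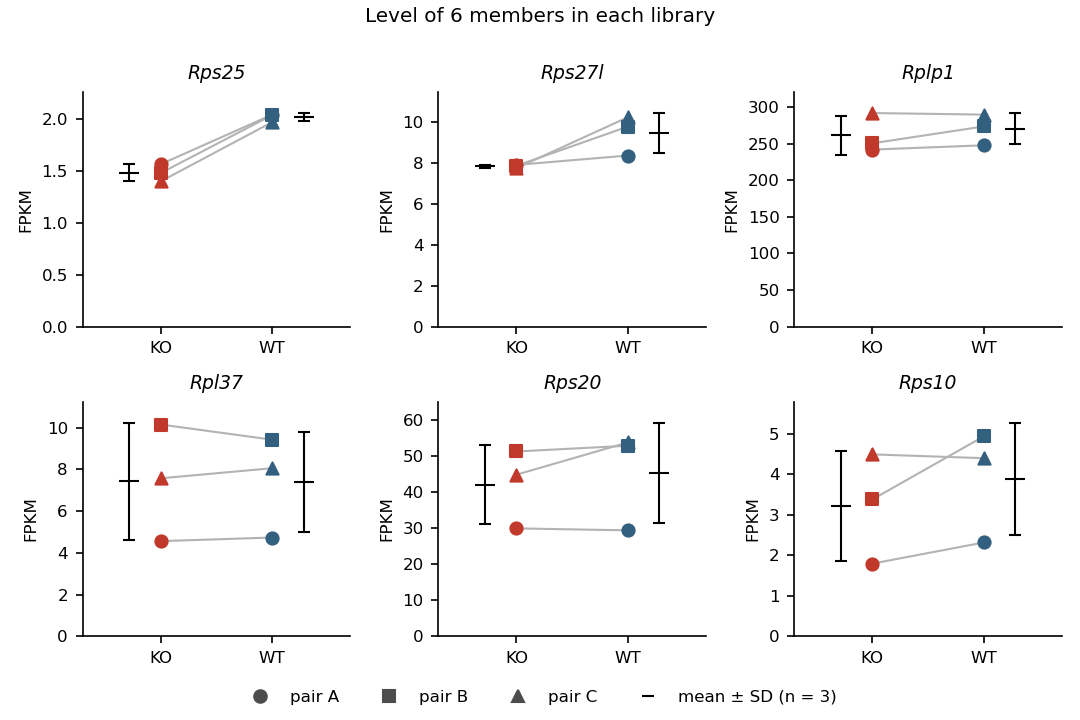
Level in FPKM (linear axis from 0) of 6 members in each library, KO left of WT; symbols mark pairs, grey lines join the libraries of a pair, and black bars show the mean ± SD of 3 libraries. The genotypes are apart in *Rps25* and *Rps27l* and overlap in the others, where both pair A libraries are lowest.

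Markers of other cells are given beside these values. The 10 markers of striatal neurons were lower in KO in 10 of 10, at a summed 146 to 312 FPKM in KO and 277 to 320 FPKM in WT, and the KO libraries of pairs B and C were the low ones. The 10 markers of meningeal fibroblasts were higher in KO in 9 of 10, at 96.4 to 120.4 FPKM in KO and 87.2 to 94.5 FPKM in WT. The 6 markers of mature oligodendrocytes were lower in KO in 6 of 6, at 1336 to 2589 FPKM in KO and 1704 to 2806 FPKM in WT. These directions are over all libraries and did not hold within pair A. There all 6 oligodendrocyte and 7 of 10 striatal markers were higher in KO, and 6 of 10 meningeal ones were lower. Within pairs B and C all 6 oligodendrocyte markers were lower in KO. None of these genes was called by limma, although 4 striatal, 2 meningeal and 0 oligodendrocyte ones had an unadjusted p under 0.05, and 9, 5 and 0 with the block. Their part in the members' values was not tested. Fewer cells of a type and less RNA per cell cannot be told apart in bulk tissue.

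Many ribosomal protein genes differed between the pairs, and most of these were lower in pair A. In limma's F test across the pairs, with genotype as a term, 29 of 61 members (47.5%) had an adjusted p under 0.05, against 30.6% of all tested genes. Of these 29, 10 were small-subunit and 19 large-subunit genes, 27 had their lowest mean in pair A, and 15 had their highest in pair C and 13 in pair B. Both pair A libraries lay below the other 4 in 39 of the 61 members (63.9%), against 25.0% of all tested genes, and above the other 4 in 0 members, against 19.4% of all. The count of 29 depended on WT1013, without which 17 were called, 15 of them among the 29. The count was 12 of 81 members with no filter on low values, where 1347 of all 19781 genes were called. Over all genes, too, both of these settings gave fewer calls than the main fit.

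By pair, the members' median difference in log2(FPKM + 1) was 0.17 for B minus A (51 of 61 higher) and 0.22 for C minus A (54 of 61 higher), while over all tested genes these medians were 0.01 and 0.02. Taken in KO libraries alone the members' medians were 0.12 and 0.15, and in WT libraries alone 0.24 and 0.31, so A was the low pair in either genotype. Pairs C and B differed by a median of 0.03, which was -0.03 without WT1013. The order A below B below C held for 29 members (47.5%) and 17.7% of all tested genes. Over the 6 libraries the coefficient of variation of tested members ran from 4.37% to 35.9%, with a median of 11.6%. Members ranged widely around the medians, with B minus A from -0.44 to 0.93 and C minus A from -0.35 to 0.84.

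*Rpl37*, a small zinc-binding protein of the large subunit, had the smallest p. It measured 4.56, 10.1 and 7.57 FPKM in KO (pairs A, B and C) and 4.74, 9.42 and 8.06 FPKM in WT, so the pairs separated fully and in the same order in both genotypes. The pair B mean was 2.10 times and the pair C mean 1.68 times the pair A mean, with a limma F adjusted p of 0.00194. Of the windows of *Rpl37*, 31.3% also occurred in *Rpl37rt*. The row of *Rpl37rt* measured 26.2, 27.3 and 27.9 FPKM in KO and 27.0, 29.9 and 29.8 FPKM in WT (limma F adjusted p 0.209). Which locus the reads of either row came from is not shown. *Rps20*, of the small subunit's head, measured 29.9, 51.2 and 44.8 FPKM in KO and 29.4, 52.8 and 53.7 FPKM in WT, with both pair A libraries far below the rest (limma adjusted p 0.0023). *Rpl30*, which in mammals also binds selenocysteine insertion elements, measured 20.7, 30.5 and 26.8 FPKM in KO and 19.5, 33.3 and 28.1 FPKM in WT (limma adjusted p 0.00317). In *Rpl30*, as in *Rpl37*, pair B was highest in both genotypes.

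*Rps10*, already described for its low KO values, had a pair B mean 2.02 times and a pair C mean 2.16 times its pair A mean (limma adjusted p 0.00562). *Rps21*, a small-subunit protein, measured 30.7, 40.4 and 35.8 FPKM in KO and 27.9, 42.1 and 34.4 FPKM in WT (limma adjusted p 0.00594). Its pairs stood in the order A, C, B in both genotypes. *Rpl39*, of the exit tunnel, measured 22.2, 27.7 and 31.6 FPKM in KO and 20.1, 33.1 and 33.4 FPKM in WT, with pair C highest (limma adjusted p 0.00787). *Rpl27* was the only called member with its highest mean in pair A: it measured 1.46, 0.732 and 1.25 FPKM in KO and 1.20, 0.687 and 1.08 FPKM in WT, on 17 to 30 reads a library, with pair B lowest. The stalk genes *Rplp0*, *Rplp1* and *Rplp2* passed too (limma adjusted p 0.021, 0.025 and 0.0398), with pair C highest at 1.20, 1.19 and 1.15 times the pair A mean and pair B within 1.07 times of it.

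**Figure D3:**
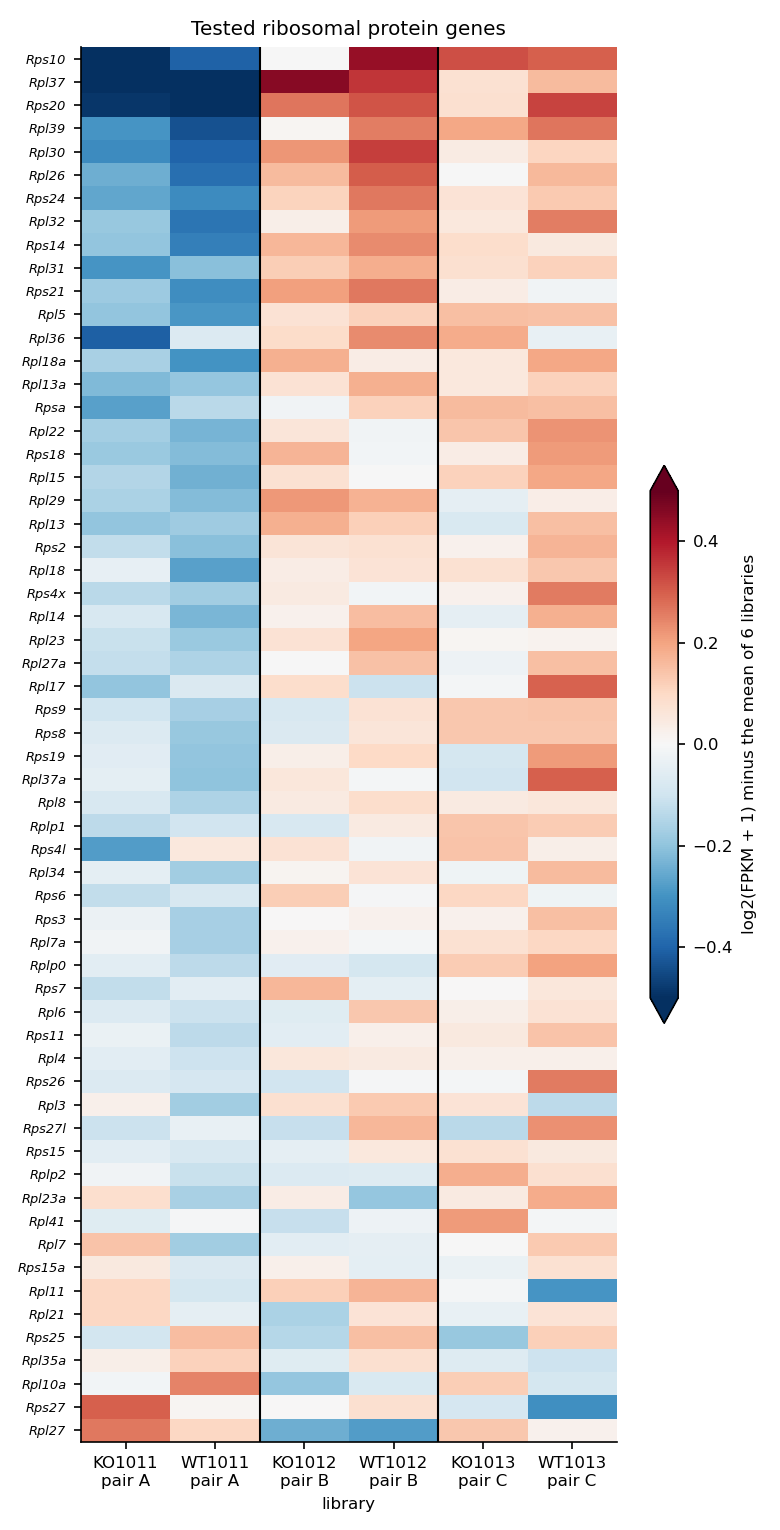
Each row is 1 of the tested members, with 1 not shown, and each column a library, with the pairs in order and KO left of WT within a pair; colour gives log2(FPKM + 1) minus the gene's mean over the 6 libraries, capped at 0.5 either way, and rows are sorted by the pair A mean. Most rows are blue in both pair A libraries and red in the pair B and C libraries, whichever the genotype.

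Short genes in general were lower in pair A, and ribosomal protein genes are short. Exon lengths of the 82 members ran from 279 to 5127 bp with a median of 700 bp, and 63 had at most 1000 bp, while the median over all tested genes was 2802 bp. A comparison with the 1082 other tested genes of at most 1000 bp was added after the data were seen. The members were called across pairs in 47.5%, the other short genes also in 47.5%. Both pair A libraries lay below the other 4 in 63.9% of members and 46.5% of other short genes. Of the members of at most 1000 bp alone, 45.5% were called across pairs and 59.1% had both pair A libraries lowest. Over 1000 bp, 52.9% of members and 29.0% of other genes were called. Both pair A libraries were lowest there in 76.5% of members and 22.8% of other genes. The median differences in log2(FPKM + 1), B minus A and C minus A, were 0.17 and 0.22 in members and 0.21 and 0.14 in other short genes. In other genes over 5000 bp the same medians were -0.14 and -0.06, so long genes were the other way round. The 17 tested members over 1000 bp had medians of 0.21 and 0.20, against 0.15 and 0.22 in the 44 of at most 1000 bp. Other tested genes over 1000 bp had medians of -0.003 and 0.02, and those of 1000 to 1500 bp had 0.16 and 0.11. Across the 61 members Spearman's rho of exon length with the differences was -0.03 and -0.06. Whether length accounts for the members' differences was not tested.

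**Figure D4:**
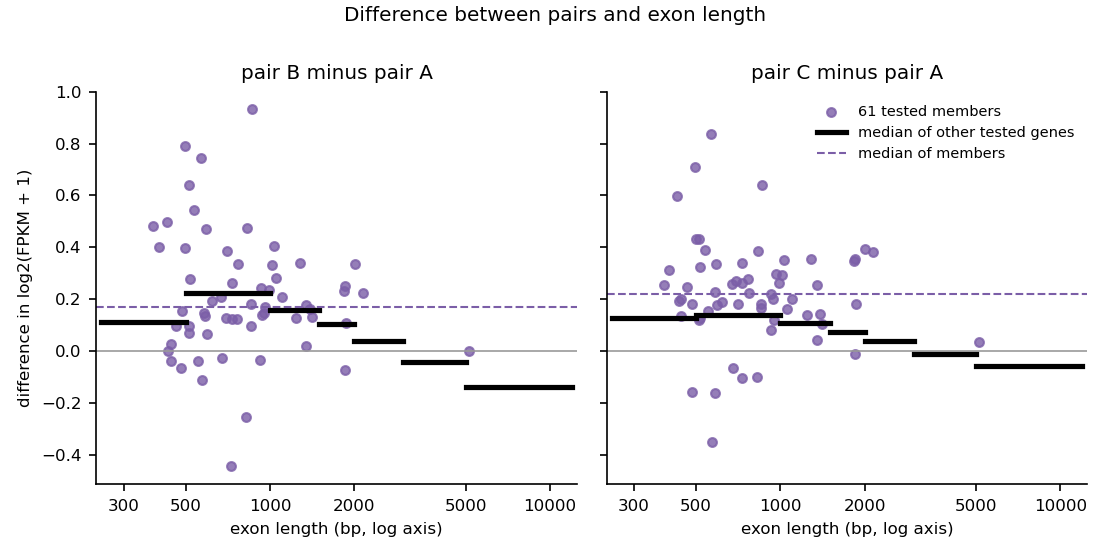
Difference in log2(FPKM + 1) between pairs (B minus A on the left, C minus A on the right) against exon length in bp (log axis); points are the 61 tested members, the dashed line their median, and black bars the medians of other tested genes in length classes. From 500 bp on the black bars fall with length, being 0.22 at 500 to 1000 bp and -0.14 over 5000 bp on the left, and most member points lie above 0.

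Markers of other cells also moved with the pairs. The 6 oligodendrocyte markers were lower in pair C than in pair A in 6 of 6 and all were called across pairs, at a summed 2589, 2016 and 1336 FPKM in KO (pairs A, B and C) and 2263, 2806 and 1704 FPKM in WT. The 5 blood markers summed to 43.8, 8.81 and 13.0 FPKM in KO and 12.7, 10.5 and 9.03 FPKM in WT, with KO1011 the highest library. The part of either in the members' differences was not tested.

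Within pairs, the direction of KO against WT was not the same. The members' median of KO minus WT in log2(FPKM + 1) was 0.08 in pair A, with 44 of 61 higher in KO, and -0.05 in B and -0.06 in C, with 19 of 61 higher in each. Over all tested genes the medians were 0.01, 0.01 and -0.01. A KO level above WT in pair A and below it in both other pairs was seen in 23 members (37.7%), against 17.4% of all tested genes, and the opposite pattern in 2 members (3.28%), against 14.2% of all. Each pair holds a single library per genotype, so this difference between pairs was not tested. Other tested genes of at most 1000 bp had medians of the same signs, 0.05, -0.06 and -0.03, and the first pattern was seen in 26.5% of them. It was also seen in 6 of 6 oligodendrocyte, 7 of 10 striatal and 0 of 10 meningeal markers. The part of these cells in the members' pattern was not tested.

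**Figure D5:**
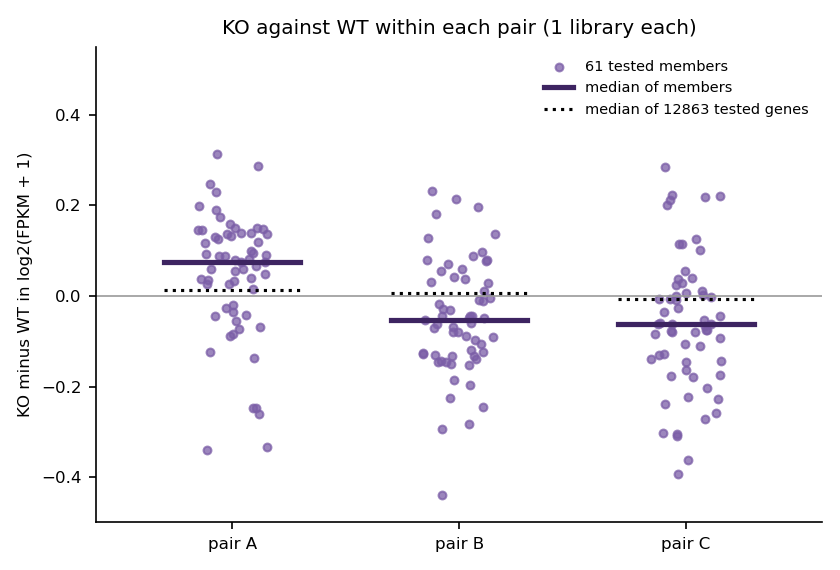
KO minus WT in log2(FPKM + 1) within each pair, from 1 library per genotype; each point is 1 of the 61 tested members, spread sideways at random, the solid bar is their median and the dotted bar the median of all tested genes. The members' median is 0.08 in pair A, -0.05 in B and -0.06 in C, while the dotted bars are at 0.01, 0.01 and -0.01.

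Other genes of translation were measured in the same libraries. Of 46 translation initiation and elongation factor genes, 0 were called between KO and WT (limma, 0 at an unadjusted p under 0.05, with or without the block). Across pairs 17 (37.0%) were called, against 30.6% of all tested genes. *Eif5a*, a factor that helps ribosomes through stalling sequences, measured 125, 151 and 153 FPKM in KO (pairs A, B and C) and 127, 154 and 159 FPKM in WT (limma F adjusted p 0.0071). *Eif1*, which guards the choice of start codon, measured 57.2, 72.4 and 65.3 FPKM in KO and 52.1, 72.3 and 64.0 FPKM in WT (limma F adjusted p 0.00683). Both were lowest in the pair A libraries, as most members were, but *Eif1ax*, which helps the small subunit scan the message, was lowest in pair B, at 68.5, 48.6 and 63.4 FPKM in KO and 68.6, 46.9 and 65.3 FPKM in WT (limma F adjusted p 0.00257). The median of the 46 was 0.04 for B minus A and 0.12 for C minus A.

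Of 43 ribosome biogenesis genes, 0 were called between KO and WT by limma (0 at an unadjusted p under 0.05, and 1, *Rrp9*, with the block). Across pairs 6 (14.0%) were called, against 30.6% of all tested genes, with medians of 0.05 for B minus A and 0.08 for C minus A. *Nhp2*, a protein of the particles that modify ribosomal RNA, was among the called, at 24.0, 29.97 and 29.4 FPKM in KO and 23.2, 29.6 and 28.8 FPKM in WT (limma F adjusted p 0.00852). Of 17 genes for mTORC1 and La-related regulators of TOP messages, 0 were called between KO and WT (0 at an unadjusted p under 0.05, and 2 with the block, *Rps6kb2* and *Tsc1*). Across pairs 7 (41.2%) were called. Among them *Rps6kb2*, a kinase that phosphorylates ribosomal protein S6, ran against the members, at 10.9, 6.28 and 7.58 FPKM in KO and 12.7, 7.31 and 8.89 FPKM in WT, highest in pair A (limma F adjusted p 0.00228) and lower in KO within each pair (with the block, unadjusted limma p 0.00436 and adjusted p 0.99893). The related rows outside the naming rule included *Rps3a1* at 15.3, 18.2 and 19.7 FPKM in KO and 14.3, 19.3 and 19.9 FPKM in WT, low in pair A as the members were (limma F adjusted p 0.0106). The mitochondrial ribosomal protein genes, which serve a separate ribosome, had 0 of 75 tested genes called between KO and WT (1, *Mrpl21*, at an unadjusted p under 0.05, and 3 with the block) and 27 (36.0%) across pairs, with medians of 0.19 for B minus A and 0.14 for C minus A. Both pair A libraries lay below the other 4 in 43 of the 75 mitochondrial genes (57.3%), against 63.9% of the members. The same held for 6 of 7 tested related rows outside the naming rule and 20 of 46 initiation and elongation factor genes (43.5%). It held for 15 of 43 biogenesis genes (34.9%) and 3 of 17 regulators (17.6%). Differences between these lists and the members were not tested.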

How the data were processed

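The authors deposited 1 table of FPKM values for 24453 genes, per the file headers made with HOMER over exons on mm10 with transcripts of a gene condensed to 1 row. The header names 12 libraries, of which 6 have columns. Others are not analysed here. The tools were FastQC, HOMER 4.8.3 and STAR 2.4.0k, per the submitters' processing notes. Strand settings and the handling of reads with several matches are not given in the sources used here.

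Depth was estimated from the steps of 1 read in the values: with the best total, 100% of 2533 to 2718 values checked per library were whole within 0.1 read. The 12863 genes that averaged at least 1 FPKM entered limma 3.58.1 (R 4.3.3, trend option, 2-sided) as log2(FPKM + 1), and calls were made where the adjusted p (Benjamini-Hochberg) was below 0.05. Alternatives changed the pseudocount, filter, scaling and block, used voom on recovered reads, or left out a library. Libraries with the same title number deviated together (r of 0.712, 0.67 and 0.432, against -0.61 to -0.061 for other pairings), so the title numbers were taken to pair the libraries. Deviations were from the mean of each genotype's libraries, so positive values in some pairings force negative ones in others. The negative values are thus partly built in. No duplicates were found, since the lowest chi-square per degree of freedom was 3.1. Floors from a count of 0 cover counting error only, and intervals of KO minus WT come from the spread between libraries. Shared windows were counted on GENCODE M21 transcripts, and sequences come from RefSeq, with Python 3.11.15, scipy 1.17.1, pandas 2.3.3, numpy 2.4.6 and, for plots, matplotlib 3.10.9.

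The family, the lists, the motifs and the rules were chosen with earlier results of these data known, although the symbol rule that takes the members uses no values. Named members are the stalk genes and *Rpsa*, the 4 highest and 4 lowest by level, the 5 with the largest KO minus WT in each direction, the 5 with the smallest p across pairs, and 5 couples of related genes. From the other lists up to 3 genes with the smallest p were eligible. A few genes are counted but not reported by name here.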

Additional observations from a re-analysis of the deposited data

Results flagged for a closer look

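The direction of KO against WT differed between pairs. The median of KO minus WT over the 61 tested members was 0.07604 in pair A, -0.05384 in pair B and -0.06253 in pair C, in log2(FPKM + 1). With 1 library per genotype in each pair, the difference between pairs was not tested. The depths of those pairs were 22.7 and 27.5 megareads in KO and WT of pair A, 31.9 and 34.03 in pair B, and 26.4 and 38.2 in pair C.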

How the results depend on the processing

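With the pair as a replicate block, 0 members and 1 gene were called between KO and WT. With 1 library of each genotype per pair, a block cannot change the KO minus WT estimates themselves. Without the block, genes called between KO and WT came to 2 with a pseudocount of 0.1, 6 with no filter and 0 with a mean of 5 FPKM or more. They came to 1 to 4 with single libraries left out, and no member was among them in any of these. With the block, more genes were called when a library of pair A or B was left out, again with no member among them. In a blocked fit, a pair that has lost a library no longer enters KO minus WT. Without a pair A library the blocked estimate thus rests on pairs B and C, where the members' medians of KO minus WT were -0.05 and -0.06. Across pairs, 12 members and 1347 genes were called with no filter, and leaving out single libraries gave 17 to 37 members and 2038 to 3923 genes. In such fits the lone library of a pair is assumed to vary like the others. Left out in turn, single libraries moved the median of KO minus WT between -0.1116 and 0.0397, and that of C minus B between -0.02764 and 0.06596. The difference of *Rpl8* was -0.0001032 with size factors, against 0.01 as deposited. The cause of these changes was not tested. Leaving the block aside, 44 of 54 counts stayed within 1.5 times the main count, 48 of 52 medians of members kept their sign, and 4 changed it (KO minus WT without KO1011, WT1012 or WT1013, and C minus B without WT1013). With size factors 23 of 24 named members kept their sign. Of the 29 members called across pairs, 29 remained with pseudocounts of 0.1 and 5, 25 with size factors, 23 with quantile normalization and 24 with voom. Members below 1 FPKM had at most 30 reads a library.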
